A study of Mus musculus with 3 samples.

Results

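The cells described here are the 821 cells that carry cluster code 3 in the D6 PM library. They were matched to a cluster numbered 2 in the study's gene table for this library, whereas the study's own map of D6 PM cells numbers more clusters than the 6 codes deposited. They were chosen by the deposited cluster code alone, and made up 13.8% (95% interval 12.9 to 14.7%) of the 5954 D6 PM cells and 821 of 15827 cells over the 3 libraries. The code 3 cells held the endoderm markers *Sox17* and *Cldn6* at the level of the largest cluster, code 1 (2539 cells, 42.6%), and the genes furthest above code 1 were mitotic genes. Of 54 genes of a standard G2M list, 50 were at least 2-fold higher in code 3 than in code 1, beside 3.65% of all genes counted. None of the 23 definitive endoderm genes counted was 2-fold higher or lower, which is near the share over all genes (3.65% higher and 0.214% lower). At a common depth, 77.3% of code 3 cells and 8.32% of code 1 cells were assigned to G2M.

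The study derived tendon cells from mouse embryonic stem cells carrying the ScxGFP reporter, a fluorescent readout of the tendon transcription factor *Scx*. D6 PM cells were embryoid bodies grown in serum-free medium with the BMP inhibitor LDN-193189, and then with LDN-193189 and the WNT agonist CHIR up to day 6, to induce paraxial mesoderm. The D10 culture was D6 PM cells taken further with FGF2, TGFβ1 and the hedgehog agonist SAG, and the E14.5 tail was cells of mouse embryo tails. Each condition is 1 library without a replicate, so that no difference between conditions or clusters was tested. The number of cell lines or embryos behind a library is not given in the sources used here.

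*Sox17* is a transcription factor of the definitive endoderm, the layer that gives rise to gut, liver and lung, and *Cldn6* is a claudin of tight junctions in early embryonic epithelia. Cells that divide make transcripts of the mitotic machinery in a fixed order. Genes of DNA replication come on before and during S phase, and genes of the spindle, kinetochore and cytokinesis reach their peak in G2 and mitosis. Many of the latter share short promoter motifs, the cell cycle genes homology region (CHR), which recruits the MuvB complex with MYBL2 and FOXM1, and the CCAAT box, which NF-Y binds.

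The proximal promoters of some genes that set code 3 apart from code 1 are shown as examples, with CHR and CCAAT letters marked. *Cdc20* and *Cdk1* are shown although they are not among the 15 genes with the largest ratio of code 3 over code 1. Each sequence is the 120 bases before the start site, 5′ to 3′ on the gene's strand, from RefSeq (GRCm38.p6), with matches to TTTGAA (CHR) and CCAAT on either strand in capitals.
*Top2a* (chr11:99024190-99024309, minus strand): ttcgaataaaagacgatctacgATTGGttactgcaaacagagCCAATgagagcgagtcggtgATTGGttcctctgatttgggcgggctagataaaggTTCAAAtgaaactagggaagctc
*Kif11* (chr19:37376262-37376381, plus strand): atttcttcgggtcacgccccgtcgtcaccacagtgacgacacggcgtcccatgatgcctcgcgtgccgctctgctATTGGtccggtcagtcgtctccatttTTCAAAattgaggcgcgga
*Mki67* (chr7:135716380-135716499, minus strand): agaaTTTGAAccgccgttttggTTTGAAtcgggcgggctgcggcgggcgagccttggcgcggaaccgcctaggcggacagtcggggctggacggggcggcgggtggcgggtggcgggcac
*Prc1* (chr7:80294331-80294450, plus strand): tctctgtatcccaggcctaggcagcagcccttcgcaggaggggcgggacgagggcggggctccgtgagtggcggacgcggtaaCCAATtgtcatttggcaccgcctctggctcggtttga
*Cdc20* (chr4:118437344-118437463, minus strand): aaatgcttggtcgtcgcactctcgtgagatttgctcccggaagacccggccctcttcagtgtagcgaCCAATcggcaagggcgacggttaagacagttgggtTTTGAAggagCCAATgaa
*Cdk1* (chr10:69352913-69353032, minus strand): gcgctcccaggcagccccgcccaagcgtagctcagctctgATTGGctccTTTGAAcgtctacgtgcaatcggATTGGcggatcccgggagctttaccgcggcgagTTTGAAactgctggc
Of these 120-base windows, that of *Mki67* holds no CCAAT, since its matches lie further upstream (-188 to -141). That of *Prc1* holds no whole CHR match, since the match at -5 runs past the start site. The same window of the marker *Cldn6*, shown for contrast, holds neither motif. This does not divide the 2 kinds of gene, since the whole windows of *Nusap1* and *Birc5* hold neither motif either, *Epcam* has CHR letters and *Foxa2* CCAAT.
*Cldn6* (chr17:23679245-23679364, plus strand): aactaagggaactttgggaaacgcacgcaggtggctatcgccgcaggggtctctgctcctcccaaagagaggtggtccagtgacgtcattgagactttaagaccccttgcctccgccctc

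The letters were counted in the whole RefSeq window, from 250 bases before to 50 after the start, for genes matched by symbol, and the motifs were searched separately, so that matches may share a base. Of the 15 genes with the largest ratio of code 3 over code 1, among those with at least 100 UMIs and 50 CPM, 13 matched the table, 12 of these held CHR letters, 10 held CCAAT and 10 held both. In *Aspm*, *Cenpf*, *Hmmr*, *Knl1*, *Kif4* and *Plk1* the CHR letters lay only after the start site, at positions 3 to 32. A window of the 120 bases before the start would not hold them. CHR letters occurred in 17.9% of all 32851 windows, CCAAT in 37.4% and both in 6.95%. Of the 242 matched genes at least 2-fold higher in code 3, 41.3% held CHR letters, 63.6% CCAAT and 31.0% both, beside 11.5%, 39.6% and 5.16% of the 6661 matched genes that were counted. The replication list had CCAAT in 17 of 26 windows but CHR letters in 4, and the definitive endoderm list had CHR letters in 2 of 20 and CCAAT in 4. Of the 12 matched genes at least 2-fold lower in code 3, 7 held CCAAT (58.3%) and 0 held CHR letters. A match is a string of letters and no measure of binding.

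The deposited values were UMI counts per cell. The D6 PM library held 51858825 UMIs, with 650 to 27108 per cell and a median of 8171. Code 3 cells had a median of 9477 UMIs and 3616 genes, and code 1 cells 7406 UMIs and 3044 genes. Called doublets were 2 of 821 cells in code 3, 6 of 2539 in code 1 and 0 to 38 in the other codes. D6 PM shared 10 barcodes with the D10 culture and 3 with the E14.5 tail. Levels are given as CPM, a gene's share of all UMIs in a code scaled to 1000000. Intervals are exact 95% intervals that cover counting error only, not differences between cultures, and a CPM value of these 3′ libraries compares cells and not genes.

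Markers were checked before any comparison. *Sox17* was at 531 CPM (515 to 548) in code 3 and 520 CPM (509 to 530) in code 1, against 24.6 in code 2, 23.5 in code 4, 12.9 in code 5 and 175 in code 6. *Cldn6* was at 320 CPM in code 3 and 301 CPM in code 1, and at most 31.1 CPM elsewhere. The 2 codes were thus the only ones with both markers high. At 3000 UMIs per cell, 69.7% (66.1 to 73.1%) of the 693 deep enough code 3 cells had a *Sox17* UMI, as had 68.5% of code 1 cells, beside 4.47% in code 2, 3.30% in code 4 and 3.60% in code 5, which give the background. Code 6 lay between, at 39.3% (31.9 to 47.1%). Without thinning the shares were 85.3% in code 3 and 77.1% in code 1. *Foxa2*, a pioneer factor of endoderm, had a UMI in 25.5% of code 3 cells and 22.05% of code 1 cells. In codes 2, 4, 5 and 6 the share was 0.424 to 1.19%.

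**Figure D1:**
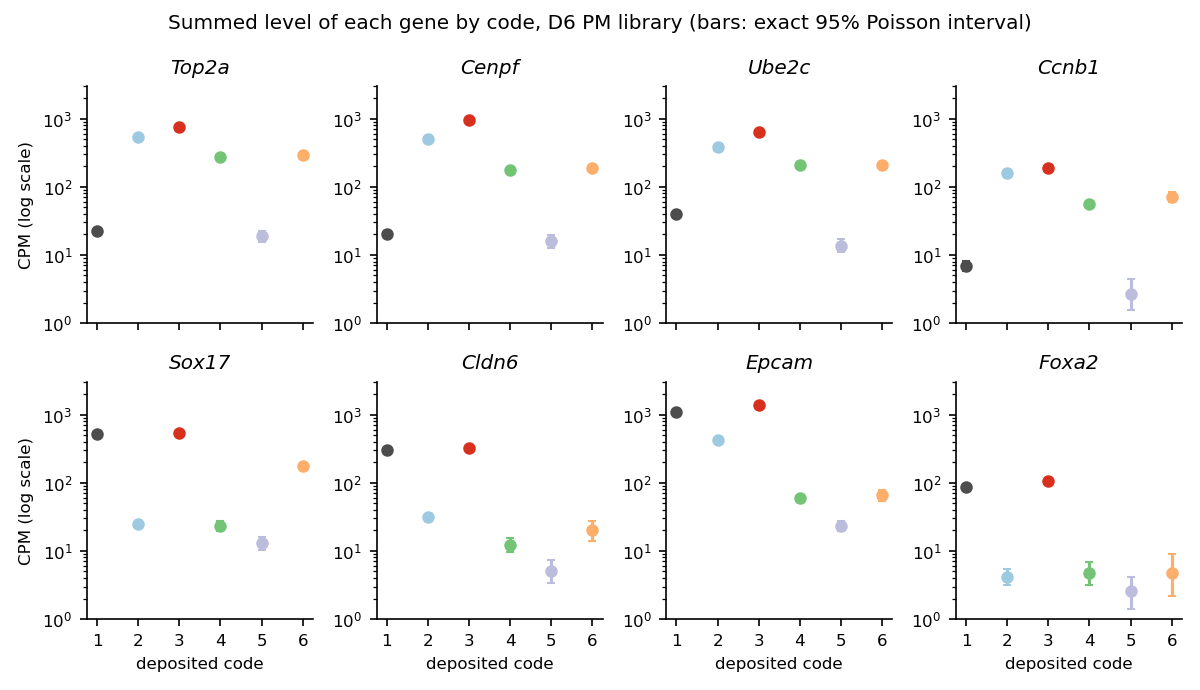
CPM (log axis) of 4 mitotic genes (top) and 4 endoderm or epithelial genes (bottom) in the 6 deposited codes of the D6 PM library, with exact 95% Poisson intervals. *Sox17* is at 531 CPM in code 3 and 520 CPM in code 1, while *Top2a* is at 762 and 22.7 CPM.

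The library is labelled paraxial mesoderm, and most genes of its list were low in code 3. The list summed to 259 CPM in code 3, 294 CPM in code 1 and 6287 CPM in code 4. *Tbx6*, the T-box factor of presomitic mesoderm, had 5 UMIs over the 821 cells, *Meox1* 19 and *Meox2* 0. *Meox1* stood at 2.49 CPM in code 3 and 187 CPM in code 4. Of the 23 genes of the paraxial mesoderm and somite list, 4 passed the detection limit in code 3 or code 1. *Pax3* (41.2 against 38 CPM), *Pax9* (33.8 against 38.4) and *Vcan* (125 against 114) were near their code 1 level, and *Tcf15* was at 13.9 against 29.1 CPM (ratio 0.478, 0.384 to 0.590). Against all other cells, 7 of 9 members counted were at least 2-fold lower, beside 6.11% of all genes, and *Pax3* was 2.04-fold higher (1.79 to 2.33), as were 3.58% of all genes at 2-fold or more.

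Markers of other cell types were also low, in shares of cells at 3000 UMIs. A UMI of the pluripotency factor *Pou5f1* was found in 1.88% of code 3 cells and 66.9% of code 2 cells. *Twist1*, a mesenchymal factor, was found in 1.30% of code 3 cells and 74.1% of code 4 cells, and *Col1a1* in 0.866% and in 80.5% of code 5 cells. *Kdr*, a receptor of endothelium, was found in 0.144% of code 3 cells and 64.3% of code 6 cells. Of the visceral endoderm genes, *Afp* was at 1.70 CPM and *Ttr* at 12.4 CPM. The list as a whole was not low, at 1833 CPM summed in code 3 and 439 to 3657 CPM in the other codes, most of it *Apoe*. *Apoe* was at 1598 CPM, with 311 to 3565 CPM in the other codes. *Rbp4*, also on that list, was at 193 CPM, with 12.2 to 48.3 CPM in codes 2, 4, 5 and 6 and 363 CPM in code 1.

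Code 3 was compared with code 1 first. Among the 8422 genes detected in at least 10% of cells of either code, 307 (3.65%) were at least 2-fold higher in code 3 and 18 (0.214%) at least 2-fold lower. The median log2 ratio was 0.02, and 5% to 95% of genes lay between -0.45 and 0.70. The difference was thus lopsided, with many genes above and few below. Of the 307 higher genes, 143 (46.6%) belong to the cell cycle lists, and these 143 are 67.1% of the 213 cycle genes counted. Since the clusters were made from these genes, the ratios describe code 3 and test nothing.

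**Figure D2:**
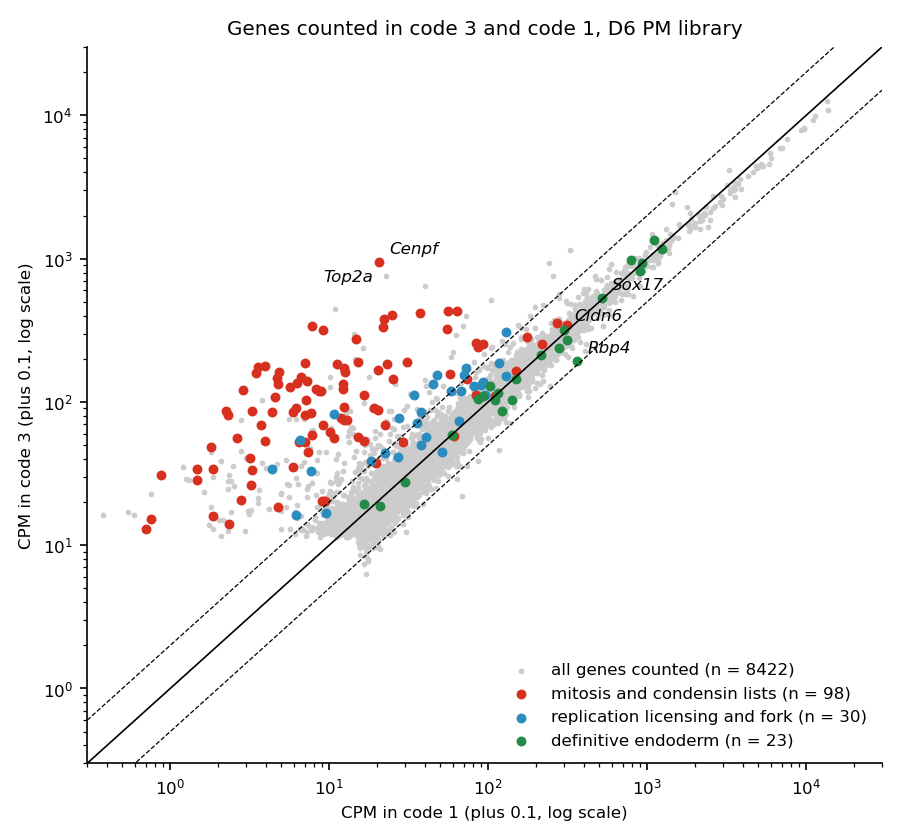
CPM of the 8422 genes counted in code 1 (x axis) and code 3 (y axis), both log, with the line of equal levels and dashed lines at 2-fold. Mitosis and condensin genes (red) lie mostly above the upper dashed line, and definitive endoderm genes (green) lie between the dashed lines.

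The regulators of entry into mitosis were all higher. Of the cyclins and kinases, 16 of 16 were at least 2-fold higher in code 3, with a median log2 ratio of 3.86. Cyclin B1, *Ccnb1*, was at 187 against 6.93 CPM (26.9-fold, 22.4 to 32.6), and its kinase *Cdk1* at 333 against 21.9 CPM (15.2-fold, 13.7 to 17.0). *Plk1*, a kinase of spindle assembly, was 28.5-fold higher and *Nek2*, a centrosome kinase, 24.6-fold. *Ccnb2* (5.73-fold) and *Cdc25b* (3.92-fold), a phosphatase that activates CDK1, had smaller ratios.

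Kinetochore, checkpoint and passenger complex genes followed. The outer kinetochore protein *Cenpf* was at 945 against 20.6 CPM (45.9-fold, 41.4 to 51.1). *Cenpa*, the centromeric histone, was at 431 against 55.7 CPM (7.73-fold). Of 20 kinetochore genes 19 were at least 2-fold higher, the exception being *Mis12* at 1.90-fold. Of 9 checkpoint genes 8 were, the exception being *Zwint* at 1.16-fold (252 against 218 CPM). The 4 passenger complex genes summed to 1080 against 72.1 CPM (14.99-fold), led by the kinase *Aurkb* at 43.6-fold (32.8 to 59.2).

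Motor and spindle genes had the largest list median in the main setting. All 24 were at least 2-fold higher, with a median log2 ratio of 4.31. The passenger complex median was the larger with the mean of per-cell CPM (3.977 against 3.86) and against all other cells (1.904 against 1.815). *Nusap1*, which bundles spindle microtubules, was at 174 against 3.47 CPM (50.2-fold, 39.0 to 65.7). With each cell thinned to 3000 UMIs the ratio of *Nusap1* was 37.3, below the thinned ratios of *Kif11* (52.0), *Hmmr* (46.7) and *Aspm* (45.7), so that the order of these genes depends on the setting. *Kif11*, the kinesin that separates spindle poles, was 46.1-fold higher (30.6-fold with the mean of per-cell CPM), *Aspm* 47.0-fold and *Hmmr* 44.2-fold. The smallest was the microtubule polymerase *Ckap5* at 2.78-fold. Of 12 cytokinesis genes 10 were higher, among them *Prc1*, which bundles the midzone (34.9-fold), and *Racgap1* (24.4-fold). *Sept7* (1.10-fold) and *Chmp4b* (0.996-fold), which serve other membrane functions too, were not.

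Chromosome structure and protein turnover were split by member. Of 18 condensin and cohesin genes, 11 were at least 2-fold higher. *Top2a*, which untangles sister chromatids and is not on this list, was at 762 against 22.7 CPM (33.6-fold, 30.4 to 37.2). The condensin core genes *Smc2* and *Smc4* were 5.84-fold and 6.73-fold higher, and the condensin I subunit *Ncapg* 15.2-fold, while the condensin II subunit *Ncaph2* was at 1.81. The cohesin genes *Smc1a* (1.60), *Smc3* (1.31), *Rad21* (1.97), *Stag1* (1.35) and *Stag2* (1.11) stayed under 2-fold. *Sgo2a*, a protector of cohesin, had the largest ratio of the list at 22.95 (18.7 to 28.5), and the cohesin acetyltransferase *Esco2* was 22.1-fold higher. In the same way, the APC/C activator *Cdc20* (13.9-fold), its ubiquitin carrier *Ube2c* (644 against 39.8 CPM, 16.2-fold) and its inhibitor *Fbxo5* (12.6-fold) were higher. The 12 core subunits listed, from *Anapc1* (1.43) to *Cdc27* (1.54), were at 0.988 to 1.54 of the code 1 level. Securin, *Pttg1*, was at 57.5 against 60.9 CPM (0.945, 0.844 to 1.06), although separase, *Espl1*, was 20.6-fold higher.

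Replication genes were higher by less. Of 30 counted 15 were at least 2-fold higher, with a median log2 ratio of 1.01. The helicase subunits ran from *Mcm2* (1.12-fold), *Mcm6* (1.16), *Mcm4* (1.18) and *Mcm3* (1.44) to *Mcm5* (1.98) and *Mcm7* (2.17, 2.01 to 2.35). *Mcm10* (8.36-fold), *Cdc45* (7.84-fold) and the ribonucleotide reductase subunit *Rrm2* (7.72-fold) were well above it. *Ung*, a glycosylase of DNA repair, was at 0.875 of the code 1 level. Among the regulators, *Foxm1* was at 29.99 against 1.76 CPM (17-fold, 11.7 to 25.5) and *Mybl2* at 31.7 against 7.48 CPM (4.24-fold), and the MuvB subunits ran from *Rbbp4* (1.18-fold) and *Lin37* (1.25) over *Lin9* (1.58) to *Lin54* (2.22).

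Genes of G1 were not higher as a list. Of 12 counted, *Ccne2* (2.29-fold) and *Rbl1* (2.37-fold) were at least 2-fold higher. *Ccnd2*, a D-type cyclin, was lower at 38.5 against 86.0 CPM (0.448, 0.394 to 0.507). *Ccnd1* and *Ccnd3* were at 0.796 and 0.718. Of the CDK inhibitors, *Cdkn1c* (p57) was at 130 against 244 CPM (0.532, 0.496 to 0.570), *Cdkn1a* (p21) at 0.828, *Cdkn1b* (p27) at 1.21 and *Cdkn2d* (p19) at 1.81 (1.49 to 2.19).

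**Figure D3:**
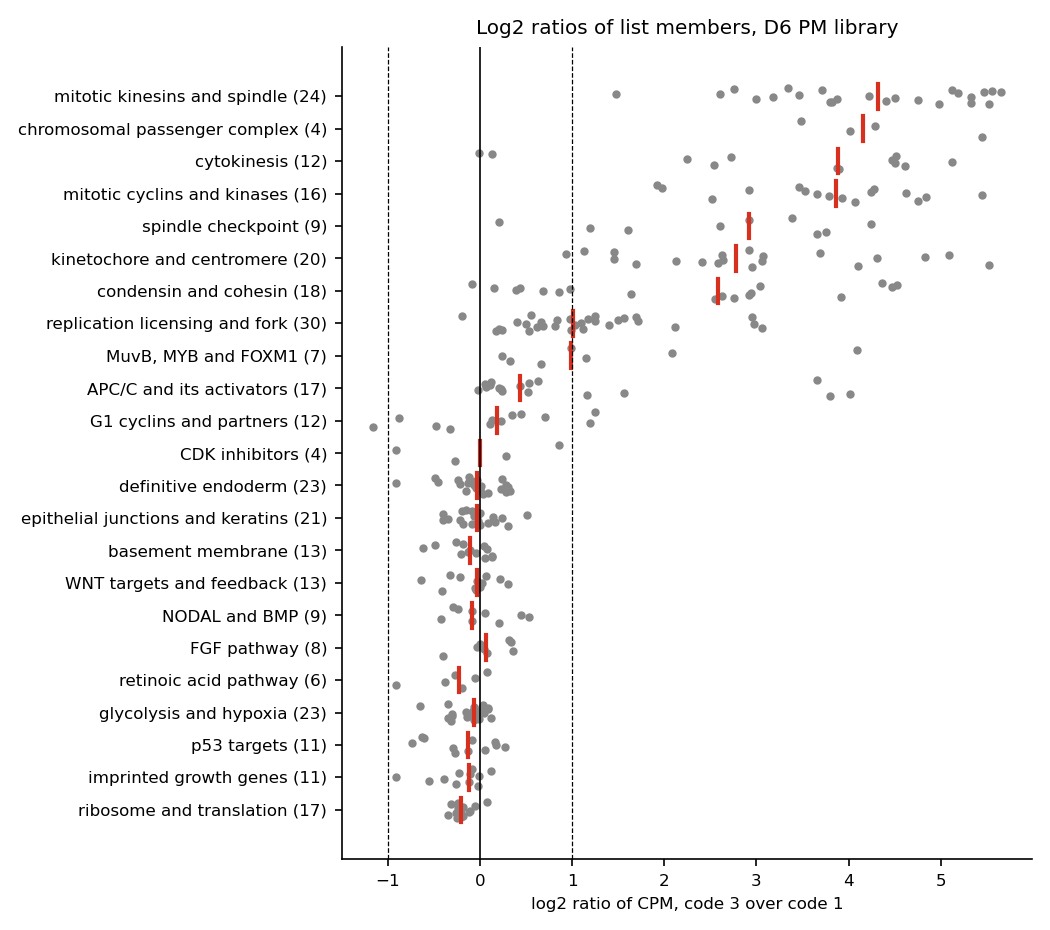
Log2 ratio of CPM, code 3 over code 1, for every member counted (points) of 23 gene lists, with the number counted in parentheses, list medians as red bars and dashed lines at 2-fold. Medians run from 4.31 for mitotic kinesins and spindle to -0.23 for the retinoic acid pathway.

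Endoderm and epithelial genes were next. Of all 8422 genes counted, 91.7% lay within 1.5-fold between the codes, and the definitive endoderm and epithelial lists were near that share. The definitive endoderm list summed to 8066 CPM in code 3 and 8012 CPM in code 1, its median log2 ratio was -0.03, and 22 of the 23 counted members lay within 1.5-fold. *Foxa1* (129 against 103 CPM, 1.25-fold), *Foxa2* (1.21-fold) and *Spink1* (972 against 797 CPM, 1.22-fold) were slightly higher, and *Gata6* (0.999) and *Gsc* (0.999) equal. The exception was *Rbp4*, the plasma carrier of retinol, at 193 against 363 CPM (0.531, 0.502 to 0.562). A *Rbp4* UMI was found in 32.8% of code 3 and 34.9% of code 1 cells, or 21.4% and 27.5% at 3000 UMIs. Of 21 epithelial genes all lay within 1.5-fold, among them *Epcam* (1358 against 1097 CPM, 1.24-fold), *Cdh1* (0.999) and *Krt18* (0.755). Only 3 gut tube genes were counted, of which *Foxa3* (0.530) and *Prox1* (0.603) lay outside 1.5-fold, as did 1 of 2 visceral endoderm genes.

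No signalling list had a member 2-fold higher or lower, which for lists of this size is near the share over all genes (3.65% and 0.214%). The 13 WNT genes had a median log2 ratio of -0.04, with *Dkk1* at 479 against 483 CPM and *Sp5* at 278 against 290 CPM. The 9 NODAL and BMP genes ranged from *Chrd* (0.747) to *Id1* (1.44, 1.28 to 1.62), a target of BMP signalling. The 8 FGF genes had a median of 0.06, and the 6 retinoic acid genes a median of -0.23, with *Stra6*, the retinol receptor, at 0.770. Glycolysis (23 genes, -0.06), p53 targets (11 genes, -0.13) and imprinted genes (11 genes, -0.12) had no such member either. Ribosome and translation genes lay slightly low, with 17 members at a median of -0.21 and a summed ratio of 0.847 (0.844 to 0.850).

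The genes furthest below code 1 were few, and the top ranks rested on a handful of code 1 cells. *Ptgds*, a prostaglandin synthase, was at 1.05 against 58.5 CPM, but 95.7% of its 1063 UMIs in code 1 came from 10 cells. *Pomc*, the precursor of ACTH, was at 5.24 against 118 CPM, with 75.8% of 2141 UMIs in 10 cells. Neither reached the detection limit. *Gadd45b*, a growth arrest gene (21.9 against 68.0 CPM, 0.322), and the nuclear RNA *Neat1* (46.2 against 117 CPM, 0.394) came next. *Prnp* (0.519) and *Igfbp5*, which binds insulin-like growth factors (227 against 406 CPM, 0.559, 0.530 to 0.589), were also lower, and the 10 highest cells held 3.47% of the *Igfbp5* UMIs of code 1.

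Against all 5133 other D6 PM cells, code 3 had 318 of 8873 genes (3.58%) at least 2-fold higher and 542 (6.11%) at least 2-fold lower. The higher genes included 23 of 24 motor and spindle genes and 16 of 16 mitotic cyclins and kinases, and also 16 of 23 definitive endoderm and 5 of 21 epithelial genes. *Pimreg* led at 6.71-fold (104 against 15.4 CPM), then the PCNA partner *Pclaf* at 5.97-fold (5.59 to 6.38), *Cenpf* at 5.23-fold and *Top2a* at 3.60-fold (762 against 212 CPM). *Sox17* was 2.28-fold and *Cldn6* 2.36-fold higher. The lower genes mark other codes. *Hbb-bh1*, an embryonic globin, had 2 UMIs in code 3 (ratio 0.00205, 0.000249 to 0.00742) and *Col1a1* 17 UMIs (0.00413, 0.00241 to 0.00662). Of 18 pluripotency genes counted, 18 were at least 2-fold lower.

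Cell by cell, the G2M list took a median of 1.17% of UMIs in code 3, with 0.772 to 1.85% as quartiles and 0.248 to 3.43% as extremes. The median was 0.226% in code 1, with 0.175 to 0.287% as quartiles and 1.496% as the highest cell. Codes 2, 4, 5 and 6 had medians of 0.630%, 0.321%, 0.127% and 0.292%. The quartiles of code 3 and code 1 did not overlap, and the tails did. Of code 1 cells, 149 (5.87%, 4.99 to 6.85%) lay at or above 0.487%, the 5th percentile of code 3. Of code 3 cells, 53 (6.46%) lay below 0.515%, the 95th percentile of code 1. The S list took a median of 0.371% in code 3 and 0.179% in code 1.

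**Figure D4:**
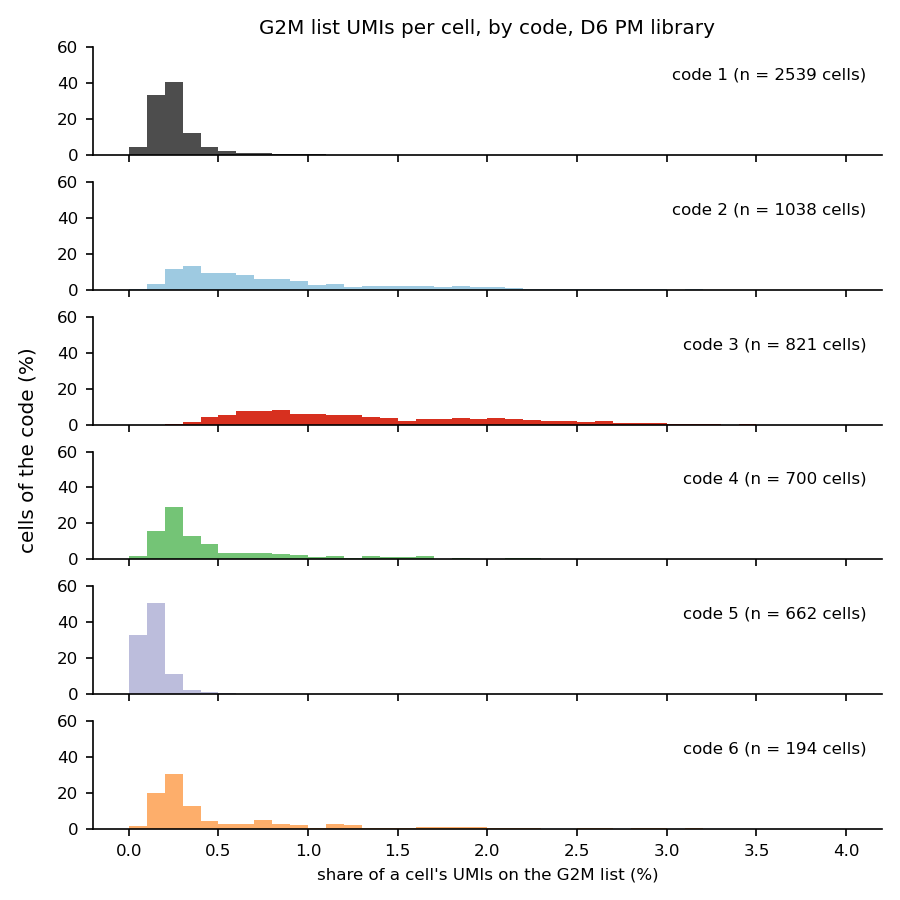
Share of each cell's UMIs on the 54-gene G2M list (x axis, %) as a histogram for each of the 6 codes of the D6 PM library (y axis, % of the code's cells). Code 3 spreads from 0.248 to 3.43%, while most code 1 cells lie under 0.515%.

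Phases were called at 3000 UMIs per cell, which left out 128 code 3 and 448 code 1 cells. In code 3, 536 of 693 cells (77.3%, 74.04 to 80.41%) were called G2M, 157 (22.7%) S and 0 G1, which allows a share of up to 0.433% by a limit of 3 cells, or 0.531% by the exact interval. In code 1, 72.8% were called G1, 18.8% S and 8.32% G2M. G2M calls made up 46.2% of code 2, 29.7% of code 4, 2.75% of code 5 and 36.9% of code 6. Without thinning, code 3 had 75.9% G2M calls. Code 3 thus held 75.5% (72.2 to 78.6%) of the 710 G2M calls in codes 1 and 3 together. These calls rest on transcript levels, and cycling was not measured.

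The marker and the mitotic genes were found in the same cells. Of code 3 cells at 3000 UMIs, 51.2% (47.4 to 55.0%) had a UMI of both *Sox17* and *Top2a*, beside 52.8% if the separate shares are multiplied. In code 1 the share was 3.01%, in code 2 2.40% and in code 4 0.990%. For *Epcam* and *Mki67*, the antigen of proliferating cells, it was 45.7% in code 3, 20.5% (17.9 to 23.2%) in code 2 and 1.72% in code 1, so that this pair is not limited to code 3.

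Codes 1 and 3 combined, 3360 cells and 56.4% of the library, had 25.5% G2M calls. *Top2a* in the sum was at 242 CPM, beside 275 CPM in code 4 (ratio 0.877, 0.831 to 0.927), 292 CPM in code 6 (0.828) and 542 CPM in code 2 (0.445), and 18.8 CPM in code 5. *Ube2c* was at 219 CPM in the sum, beside 210 CPM in code 4 (1.04, 0.982 to 1.11) and 388 CPM in code 2. *Cenpf* was higher in the sum (294 CPM) than in code 4 (1.67, 1.57 to 1.79) and code 6 (1.57), and *Cdk1* was higher than in code 4 (1.25) and lower than in code 6 (0.768). The order of the sum and codes 4 and 6 thus differed by gene, while all 6 genes examined were lower in the sum than in code 2.

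Cells of like cycle share were then drawn from both codes to see what differed outside the cycle lists. Drawing equal numbers from bins of the summed G2M and S share gave 138 cells of each code, 82 of them from the lowest bin. The match was incomplete, with a median summed share of 1.07% in the code 3 cells and 0.837% in the code 1 cells, and 9439 against 4536 median UMIs. With cycle list genes left out, 229 of 8258 genes (2.77%) were at least 2-fold higher in code 3 and 85 (1.03%) lower. Counting error, which is large for genes near the detection limit in so few cells, was not separated from these counts. Histone genes led, with *Hist1h2ae* at 123 against 26.1 CPM (4.74-fold, 2.97 to 7.97) and *Hist1h1e* at 2.83-fold (2.13 to 3.80). *Id1* (73.1 against 31.3 CPM, 2.34-fold) and *Pclaf* (2.25-fold) followed. *Hist1h2ae*, *Hist1h1e* and *Pclaf* are not on the cycle lists. In the whole codes *Hist1h2ae* (14.75-fold) and *Pclaf* (14.73-fold) were higher still. The part of the cell cycle in these ratios was not tested. *Prnp* (66.8 against 143 CPM, 0.466, 0.347 to 0.625) and *Rbp4* (186 against 334 CPM, 0.559, 0.466 to 0.669) were lower here as in the whole codes. None of 22 endoderm genes reached 2-fold, near the share over all genes, and of the G2M list, matched in part only, 31 of 52 did.

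Neighbourhoods gave a further measure of how far code 3 stood apart. On 30 principal components of 2000 variable genes, 85.4% of the 20 nearest neighbours of code 3 cells were code 3 cells and 14.2% code 1 cells, in a library with 13.8% code 3 cells. When the cycle list genes were left out, 31 of which were among the variable genes, the shares were 60.6% and 38.9%. With the cycle scores regressed out they were 68.2% and 31.4%. Other codes gave under 1% in all 3 settings. Code 3 and code 1 cells were thus mixed in part, and not in proportion to their numbers. Higher genes outside the lists, such as *Hist1h1b* (20.7-fold) and *Pclaf* (14.73-fold), were not left out. Their part in these shares was not tested.

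Code 3 was not uniform. Clustering its cells alone gave 5 groups, which are numbered by size and not named. The groups were made from the levels compared here, so that ratios between them describe the groups and test nothing. Group 1 (233 cells) had 99.6% G2M calls and the highest levels of late mitotic genes, with *Cdc20* at 356 against 118 CPM in the rest of code 3 (3.03-fold, 2.73 to 3.37) and *Cenpf* at 1639 against 580 CPM. Group 3 (158 cells) had 54.8% G2M and 45.2% S calls, *Cdc20* at 49.3 CPM, and *Mcm6* at 226 CPM beside 74.9 CPM in group 1. Group 3 also held most *Rbp4*, at 530 against 99.2 CPM (5.34-fold), with *Dppa5a* (4.93-fold) and *Fabp3*, a fatty acid binding protein (4.42-fold). The pluripotency list summed to 351.5 CPM in group 3 and 110.6 to 220.7 CPM in the other groups, beside 13946 CPM in code 2. Code 2 cells were 1.01% of the nearest neighbours of group 3 cells, against 0 to 0.166% in the other groups. The part of code 2 cells in these levels was not tested. Of the 1474 *Rbp4* UMIs of code 3, 27.2% lay in 10 cells.

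Group 4 (127 cells) had 393 of 9298 genes counted at least 2-fold higher than the rest of code 3 and 240 lower. The genes given here are examples, and no list of patterning genes was counted. *Pga5*, also a leading gene, was at 975 against 36.9 CPM (26.4-fold). The WNT antagonist *Sfrp5* was at 124 against 4.49 CPM (27.7-fold, 18.5 to 43.1) and the retinoic acid hydroxylase *Cyp26a1* at 87.5 against 3.16 CPM. *Hhex*, a homeobox gene of anterior endoderm, was at 61.0 against 2.99 CPM (20.4-fold), and *Fgf5* at 234 against 13.6 CPM. *Otx2* stood at 327 CPM, with 19.7 to 67.1 CPM in the other groups, *Gsc* at 152 CPM with 11.4 to 54.4 CPM, and *Dkk1* at 1038 CPM with 158 to 450 CPM. The *Hox* cluster RNA *Hotairm1* was lower, at 8.02 against 55.4 CPM (0.145, 0.0763 to 0.251). *Sox17*, at 549 CPM, was near its level in groups 1 to 3 (556 to 580 CPM).

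Cells with UMIs of several of these genes were also found in code 1. At 3000 UMIs, 125 of 2091 code 1 cells (5.98%, 5 to 7.08%) and 30 of 693 code 3 cells (4.33%, 2.94 to 6.12%) had a UMI of at least 3 of the 6 leading genes of group 4, *Sfrp5*, *Cyp26a1*, *Pga5*, *Pdgfra*, *Hhex* and *Fgf5*. The other codes had 0 to 0.165%. At this depth 23.8% of the group 4 cells themselves met the limit. Near it, 153 code 1 cells had exactly 2 of the genes and 90 exactly 3, and the counts do not say whether these cells form a type. Within code 1, the 125 cells had higher levels of genes not used to pick them, with *Gsc* at 3.57-fold, *Otx2* at 3.92-fold (3.53 to 4.34) and *Cfc1* at 5.12-fold, and *Hotairm1* at 0.0912. The ratios of group 4 within code 3 were 4.56, 6.70, 7.70 and 0.145. *Xist*, the RNA of the inactive X chromosome, differed, at 0.956 (0.654 to 1.36) in the 125 cells and 0.108 (0.0534 to 0.195) in group 4. *Top2a* in the 125 cells was at 25.3 against 20.7 CPM (1.22, 0.817 to 1.77).

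Group 5 (122 cells) had low epithelial genes. *Cldn7* was at 12.9 against 234 CPM (0.0549, 0.0306 to 0.0908), *Cdh1* (E-cadherin) at 12.01 against 138 CPM and *Epcam* at 174 CPM beside 578 to 1775 CPM in the other groups. *Zeb1*, a repressor of *Cdh1*, was at 55.8 against 12.1 CPM (4.62-fold), the growth factor *Ptn* at 69.5 against 5.57 CPM (12.5-fold) and *Fst*, a binder of activin, at 110 against 19.8 CPM. An *Epcam* UMI was found in 20.2% of group 5 cells at 3000 UMIs and 60.5 to 98.7% of cells in the other groups. In code 1 the share was 67.5% (65.4 to 69.5%), so that cells without an *Epcam* UMI are not limited to code 3. Such code 1 cells were not examined further. Of the endoderm genes, *Foxa2* (110 CPM) and *Trh* were at 1.05 and 1.03 of the rest of code 3, *Sox17* (346 CPM) at 0.612 (0.551 to 0.679), *Spink1* at 0.649, *Car4* at 0.479, *Cldn6* at 0.310 and *Rbp4* at 0.281. The paraxial mesoderm and somite list was higher, at 421 CPM summed in group 5 and 116 to 254 CPM in the other groups, beside 6287 CPM in code 4. *Vcan* (187 CPM), *Ptn* and *Pax3* (43.7 CPM) made up most of it, and *Twist1* was at 10.3 CPM. Of the nearest neighbours of group 5 cells 1.72% were code 4 cells, against 0 to 0.0553% in the other groups. Their part in the result was not tested. G2M calls made up 52.3% of the group and S calls 47.7%.

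**Figure D5:**
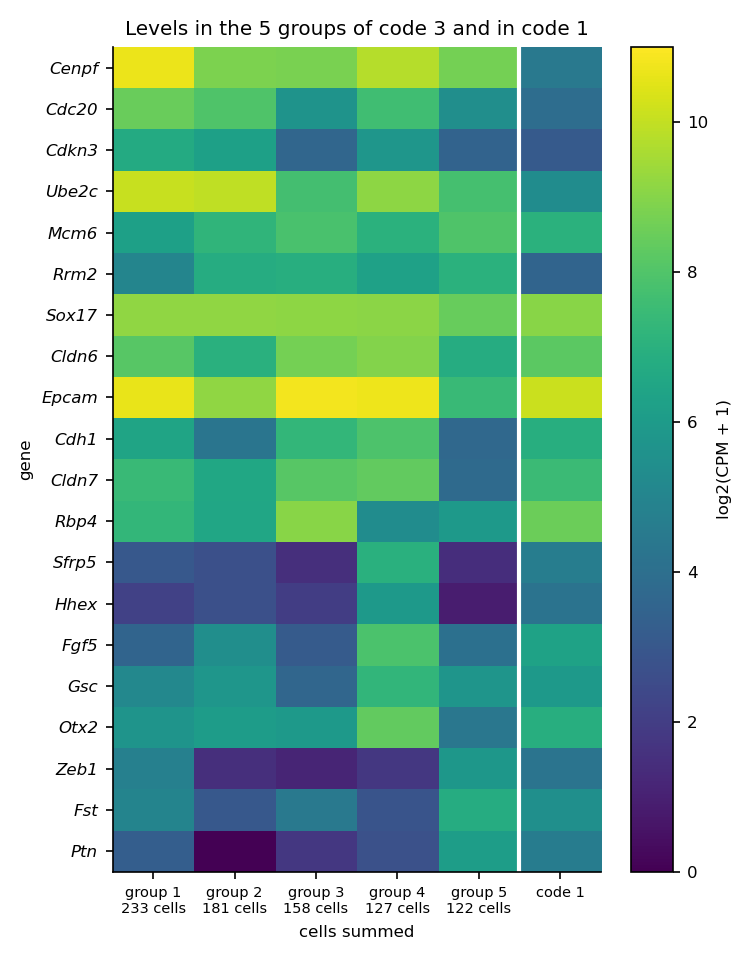
Heat map of log2(CPM + 1) of 20 genes (rows) in the 5 groups within code 3 and, right of the white line, in code 1. *Sox17* is even across groups 1 to 4, *Sfrp5*, *Hhex*, *Fgf5*, *Gsc* and *Otx2* are highest in group 4, and *Epcam*, *Cdh1* and *Cldn7* are low in group 5.

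Group 2 (181 cells) stood apart in depth and mitochondrial RNA, with a median of 2631 UMIs, 1414 genes and 0.133% mitochondrial UMIs, against 9879 to 12633 UMIs and 2.16 to 2.31% in the other groups. The nuclear RNA *Kcnq1ot1* was at 18.1 against 447 CPM (0.0406) and *mt-Co1* at 65.3 against 1048 CPM. Relative to the rest of code 3, *Sox17* (580 CPM) was at 1.10 (0.979 to 1.23) and *Ube2c* (990 CPM) at 1.60, while *Cldn6* was at 0.374, *Epcam* at 0.408, *Foxa2* at 0.674, *Cenpf* at 0.469 and *Mki67* at 0.334. The definitive endoderm list summed to 4377 CPM in group 2 and 5886 to 9657 CPM in the other groups. Cells under 0.5% mitochondrial UMIs were 19.5% of code 3, 16.7% of code 1, 17.3% of code 2, 3.14% of code 4, 16.5% of code 5 and 10.8% of code 6. Without these cells, a check chosen after the data were seen, 321 genes were at least 2-fold higher in code 3 than in code 1 and 28 lower, *Top2a* was 35.9-fold higher, *Sox17* 1.01-fold, and 77.8% of code 3 cells were called G2M. In the matched cells the counts without them were 323 higher and 163 lower, with 91 cells drawn from each code.

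The genes that set code 3 apart were also examined in libraries that its clustering did not use. In the D10 culture, code 2 (1353 cells, cluster 1 of the study) was compared with code 1 (2964 cells, cluster 0), and in the E14.5 tail code 2 (186 cells) with code 1 (685 cells). All 15 leading genes were at least 2-fold higher in code 2 in both libraries, by 3.96 to 11.7 in the culture and 25.6 to 115 in the tail. *Nusap1* was at 336 against 28.7 CPM (11.7-fold, 10.6 to 12.9) in the culture and 330 against 2.86 CPM (115-fold, 79.8 to 173) in the tail, beside 50.2-fold in D6 PM. Of the cycle genes counted, 140 of 210 and 161 of 213 were at least 2-fold higher, beside 340 of 8077 (4.21%) and 618 of 11298 (5.47%) of all genes counted in those libraries. Of all genes, 0.186% and 2.76% were at least 2-fold lower. Across the 210 and 213 cycle genes counted, the log2 ratios correlated with those of code 3 over code 1, with Pearson's r of 0.886 and 0.940. Genes are not independent replicates, and these clusters too were made with the genes compared.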

How the data were processed

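Single-cell libraries (10x 3′ v3, after removal of dead cells) were analysed for D6 PM, with the D10 culture and E14.5 tail for 1 comparison. The deposited values are counts (unnormalized UMIs for each gene in each cell) that the authors made with cellranger. Multi-mapping reads were ignored, so that genes with near-identical copies are under-counted. The authors removed cells of high mitochondrial share or extreme depth and clustered with Seurat 3.0. The genome build is not given in the sources used here. The first row of each file holds the cluster code used as deposited.

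UMIs were summed per code and expressed as CPM, and ratios were given exact conditional binomial intervals, shares Clopper-Pearson intervals and levels Poisson intervals (Python 3.11.15, NumPy 2.4.6, SciPy 1.17.1). Genes were counted at 2-fold or more among those detected in at least 10% of cells of either code, since 1 library per condition allows no test. Scanpy 1.11.5 gave scores, phases, neighbours, Leiden groups (leidenalg 0.10.2, resolution 0.5, 15 neighbours) and Scrublet doublets (expected rate 6%), which were left out only as an alternative. The random seed was 1. For the matched comparison cells were drawn in equal numbers from 10 bins made of the deciles of code 3, instead of being weighted. Named genes were *Sox17*, *Cldn6*, members of the lists, the 15 (code 1), 10 (all others) and 10 (matched) largest ratios each way with at least 100 UMIs and 50 CPM, and the 6 leading genes of each group. *Top2a* and other genes of the standard S (43) and G2M (54) lists count as list members, and some genes shown for groups were chosen after their values were seen. The members and lists were chosen with earlier results of these data known. On simulated counts for code 3 over code 1, 200 of 200 genes changed 4-fold were recovered among 7960 counted, and 6 unchanged genes passed. The 400 simulated cells of each group shared the same mean profile. The check thus covers the counting rule and not the variation between real cells.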

Additional observations from a re-analysis of the deposited data

How the results depend on the processing

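No paired analysis was possible because each condition is 1 library. The count of genes at least 2-fold higher in code 3 than in code 1 (307) was 506 at a 1.5-fold limit, 210 after thinning, 205 at a 25% detection limit and 302 to 341 in the other settings. The count of lower genes (18) was 8 after thinning, 31 with means of per-cell CPM, 60 and 4 at detection limits of 5% and 25%, 194 at 1.5-fold and 542 against all other cells. Without cells under 0.5% mitochondrial UMIs, an alternative chosen after seeing the data, it was 28. The *Top2a* ratio (33.6) was 38.3 thinned, 22.5 with mean CPM and 3.60 against all others, and that of *Cenpf* (45.9) was 41.0 with mean CPM and 5.23 against all others. With mean CPM *Kif11* (46.1) was 30.6, *Hmmr* (44.2) 35.2 and *Mki67* (41.0) 34.3, and *Nusap1* (50.2) was 37.3 thinned. *Sox17* was 2.28 against all others, and *Cldn6* 1.16 thinned and 2.36 against all others. In the matched cells, the higher count (229) was 151 with 5 bins, which drew 198 cells of each code. The lower count (85) was 50 when matched on the G2M share alone (175 cells of each code). It was 163 without the low mitochondrial cells (91 cells of each code). At 2000 and 5000 UMIs per cell, the *Sox17* share was 58.5% and 85.0% and the *Cldn6* share 38.5% and 68.3%, and the G2M share at 2000 UMIs was 72.8%. With 50 neighbours, the own share was 81.9% with all genes and 56.2% without cycle genes, and with 3000 variable genes the latter was 64.2%. Against all other cells, list medians (log2) changed sign for definitive endoderm (-0.03 to 1.11), epithelial genes (-0.03 to 0.79), basement membrane (-0.11 to 0.42), WNT (-0.04 to 0.28), glycolysis (-0.06 to 0.05), gut tube (-0.73 to 0.22), notochord (-0.12 to 0.50), primed epiblast (-0.15 to 0.60), G1 cyclins (0.18 to -0.36) and CDK inhibitors (0.00 to -1.32). Thinning changed the sign for G1 cyclins (-0.11), CDK inhibitors (-0.33), hedgehog (0.16 to -0.07), NODAL and BMP (0.01) and notochord (0.03), mean CPM for CDK inhibitors (-0.03) and notochord (0.01), and centring on the median ratio for CDK inhibitors (-0.02). Code 3 split into 4 groups at resolution 0.3, 7 at 0.8 and 4 without cycle genes, so that the number of groups depends on the setting. The cause of these shifts was not tested.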
